A study of Mus musculus with 17 samples.

Results

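Transcripts of 47 genes that mark the cell types around a glandular epithelium were read in mouse lacrimal gland and in organoids grown from it. They were taken by symbol from a list of cell type markers: 7 of fibroblasts, 8 of endothelium, 3 of pericytes, 16 of macrophages and antigen-presenting cells, 7 of lymphocytes and plasma cells, 3 of nerve and 3 of fat. All 47 were found among the 38293 gene IDs of the table that holds gland and uncloned organoids, and all 47 among the 55487 gene IDs of the table that holds the clones.

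The lacrimal gland secretes the watery layer of tears. Polyadenylated RNA of 17 libraries in 7 groups was sequenced, and no animal's strain, sex or age is given in the sources used here. Uncloned wild-type organoids of lines 6, 7 and 8 were grown in differentiation medium (DM), with 2 days in expansion medium (EM) followed by 5 days in DM, or for 7 days in EM, and wild-type gland carries the same 3 numbers. Organoid clones came as 2 clones labelled Pax6-KO in DM and in EM, and 2 wild-type (WT) clones in DM and in EM. Pax6 encodes a transcription factor of eye and lacrimal gland development. The growth protocol gives the clones the same 2 and 5 days, while the series text speaks of 7 days for each medium, so their time in DM is uncertain. A clone descends from a single cell, and with 2 clones a genotype the effect of a clone and of the genotype cannot be fully told apart. The sources used here do not say whether the 3 lines came from separate animals, so p-values measure the spread between these libraries.

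A gland is an epithelium set in a bed of other tissue. Fibroblasts lay down the collagen and proteoglycan matrix, endothelial cells line the vessels, pericytes wrap the capillaries, macrophages clear debris and present antigen, plasma cells supply tear antibodies, and Schwann cells sheathe the nerves that drive secretion. Organoids from adult glands are grown from epithelial cells in basement membrane extract. A marker is named for the cell type in which it is most abundant, and several markers are also known from other cells, epithelium included.

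A gland or uncloned library held 12801473 to 19207469 counts, and a clone library held 18282059 to 22500534. Levels are given in CPM, the share of a library's counts scaled to a common total, after trimmed-mean scaling within a table, so they are compared only within a table. The 10 genes with the most counts held 5.93 to 7.36% of all counts in organoid libraries, against 65.5 to 67.6% in gland libraries. Scaling by total counts instead moved the median of all genes by 2.06 (log2) in EM over gland and by 1.97 in DM over gland, so modest differences from the gland depend on the scaling. Pax6 had 135 to 309 CPM in KO clones and 219 to 280 CPM in WT clones, and its level gives no check of the KO label. Of 13 epithelial genes, 11 were higher and 2 lower than in the gland in DM, beside 38.1% and 37.4% of all genes, and likewise in EM, beside 37.4% and 37.4%. All 6 genes of lacrimal acinar cells, which are epithelial too, were lower than in the gland in both media. The tight junction gene Cldn4 averaged 1059 CPM in DM and 609 CPM in EM, against 3.54 CPM in the gland, and the basal keratin Krt5 averaged 2642 CPM in DM and 1863 CPM in EM, against 29.3 CPM in the gland. In bulk libraries fewer cells of a type and less RNA per cell cannot be told apart.

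The markers were sorted by their level in each group, and most stayed below 1 CPM in organoids. At 1 CPM or more in every library stood 6 of 47 markers in uncloned DM and 4 in uncloned EM, against 38 in the gland. The same count gave 7 in KO clones in DM, 5 in KO clones in EM, 7 in WT clones in DM and 5 in WT clones in EM. After trimmed-mean scaling 1 CPM stands for fewer counts in a gland library than in an uncloned organoid library. By total counts Abcc9 and Kcnj8 averaged 0.905 and 0.609 CPM in the gland, and Vwf averaged 1.79 CPM in uncloned EM. Together 9 markers reached 1 scaled CPM in every library of at least 1 of the 6 organoid groups. They were Cd68, Mbp, Aif1, Cd74, H2-Ab1, Rgs5, Vwf, Cd163 and Pou2af1, and only Cd68 and Mbp did so in all 6. Outside these 9, Lpl, Abcc9, Csf1r and Pecam1 passed 1 CPM in some libraries but not in every library of a group. Lpl reached 7.15 CPM in a KO library in EM, and Pecam1 1.06 CPM in a KO library in DM. Abcc9 reached 1.46 CPM and Csf1r 1.10 CPM in a WT library in DM. At the other end, 20 markers had 3 counts or fewer in each organoid group, and 8 of these had no count in any of the 14 organoid libraries: Emcn, Adgre1, C1qa, C1qb, C1qc, Ptprc, Cd3d and Pmp22. A count of 0 leaves room for up to 3 counts over a group. In the gland, 5 markers had 3 counts or fewer over the 3 libraries, namely Cd3d, Cd79a, Pou2af1, Adipoq and Plin1. Of these 5, Pou2af1 was above the floor in organoids, with 220 counts over the 14 libraries.

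**Figure D1:**
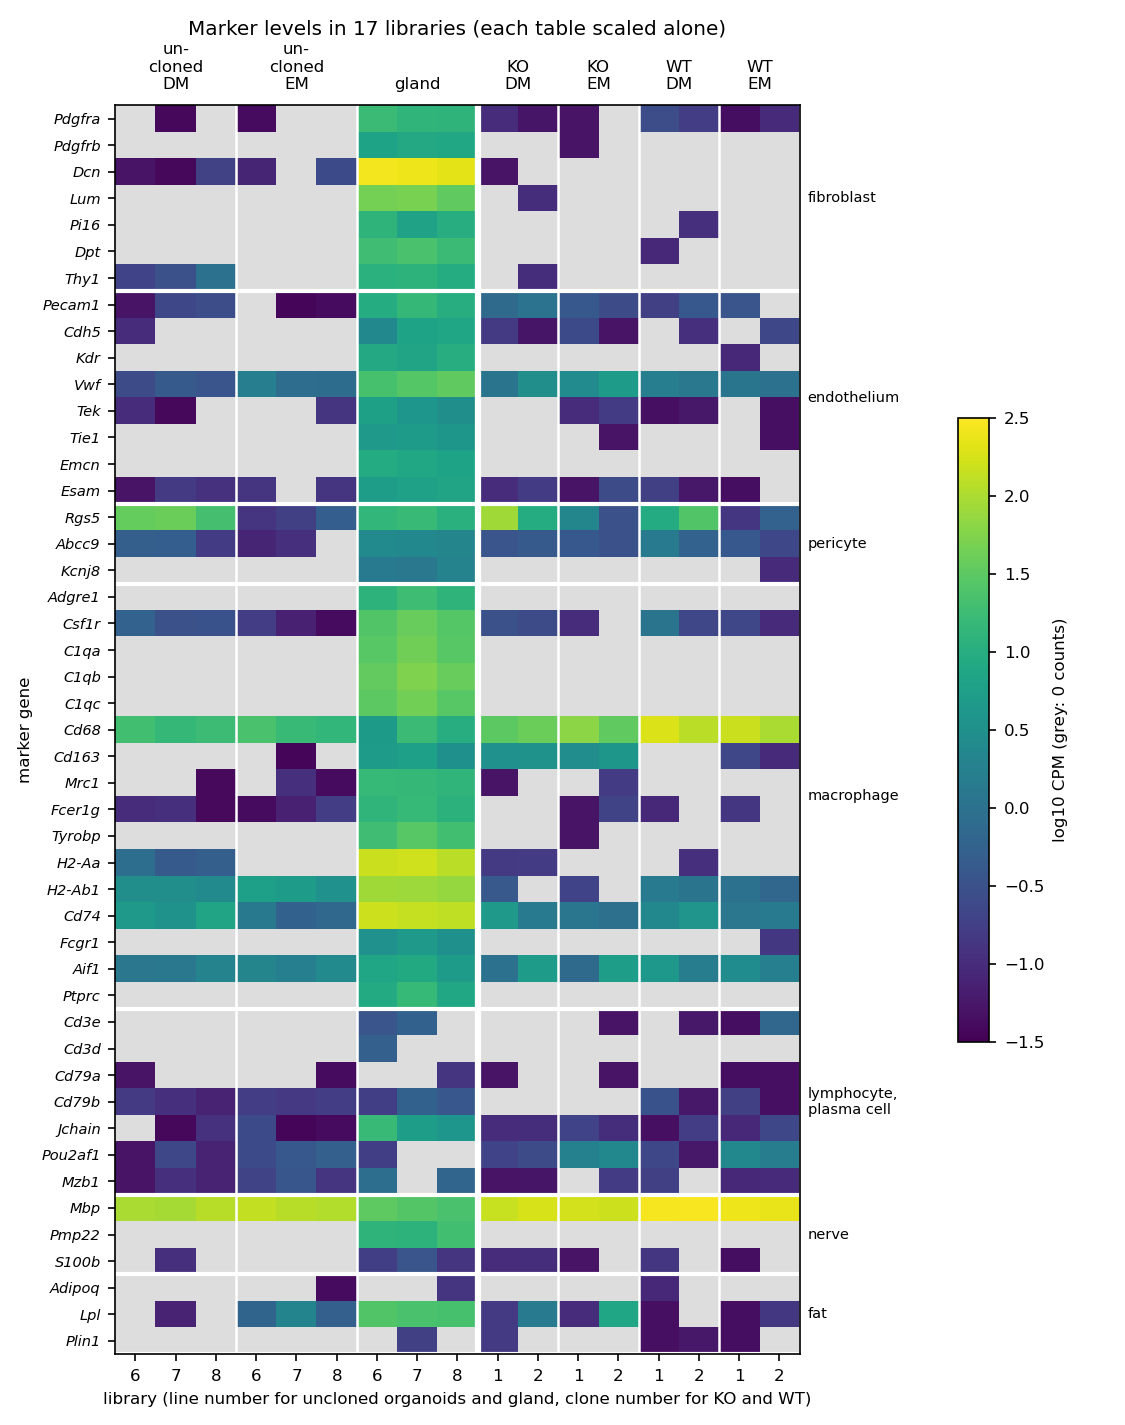
Level of each of the 47 markers (rows, by compartment) in each of the 17 libraries (columns, by group), as log10 CPM on a colour scale, with grey for 0 counts. Organoid columns are mostly grey or faint apart from a few rows such as Cd68 and Mbp, while gland columns are coloured, with 38 markers at 1 CPM or more.

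Calls rest on edgeR's quasi-likelihood test with Benjamini-Hochberg adjustment over all genes of a table, at adjusted p under 0.05, and a value with ± in parentheses is a log2 fold change with its SE. Of the 47 markers 37 passed the filter on low counts among gland and uncloned libraries, most of them through the gland alone, so their counts against the gland describe the filter as much as the markers. In DM over gland 2 were higher and 34 lower, beside 38.1% of all tested genes higher and 37.4% lower. In EM over gland 2 were higher and 35 lower, beside 37.4% higher and 37.4% lower. In uncloned DM over EM 7 were higher and 3 lower, beside 17.2% and 13.2%. Among the clones 12 of 47 passed the filter. KO clones in DM over EM had 0 higher and 1 lower by edgeR, beside 4.94% and 3.41%, while Rgs5 and Cd74 were higher at unadjusted p of 0.00504 and 0.0372 and DESeq2 called 1 higher. WT clones in DM over EM had 1 higher and 2 lower, beside 9.61% and 6.13%. KO over WT clones had 1 higher and 1 lower in EM, beside 5.38% and 4.41%, and 1 higher and 2 lower in DM, beside 2.39% and 3.08%. In the further lists below, genes tested without counts in uncloned organoids also passed the filter through the gland alone. They could only be called lower than the gland.

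Fibroblast markers were close to 0 in every organoid group. Dcn, the small proteoglycan decorin and the marker of this compartment with the highest level per kilobase in the gland, had 0.0513, 0.0384 and 0.198 CPM in DM and 0.0830, 0 and 0.248 CPM in EM of lines 6, 7 and 8, against 271, 248 and 216 CPM in the gland. Every organoid library lay below every gland library (DM -11.18 ± 0.32, adjusted p = 1.89e-10, and EM -11.08 ± 0.32, adjusted p = 1.90e-10). In the clones a single count was found, in 1 KO library. The collagen-binding proteoglycan Lum had no count in uncloned organoids and was at least 995-fold lower in DM and at least 1063-fold lower in EM than in the gland. Both bounds hold for trimmed-mean scaling only. Total-count scaling, which moved the median gene by 1.97 in DM and 2.06 in EM (log2), would make them smaller. The dermal matrix protein Dpt, Pi16 of adventitial fibroblasts and the growth factor receptor Pdgfrb had no count in uncloned organoids either. The related receptor Pdgfra had 1 count in uncloned DM and 1 in uncloned EM, against 265 in the gland, and its largest sum in a clone group was 9 counts, in WT clones in DM. Its exons overlap those of unnamed genes on the opposite strand, and whether counting used the strand is not given.

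Thy1, a surface glycoprotein of fibroblasts, neurons and other cells, differed from the rest of its compartment between the media. It had 0.205, 0.308 and 0.990 CPM in uncloned DM and no count in uncloned EM, against 11.5, 12 and 9.64 CPM in the gland. All 3 DM libraries lay above EM, by at least 13.2-fold over 3 counts in the EM group (adjusted p = 0.00397), a call made in the fit that includes the gland, as Thy1 was under the filter without it. All 3 lay far below the gland (-4.41 ± 0.47, adjusted p = 1.90e-05). Clones had 2 counts in 1 KO library in DM and none elsewhere. Of 18 further fibroblast and matrix genes, 17 were tested, and 2 were higher and 14 lower than the gland in DM, beside 38.1% and 37.4% of all genes, and 2 higher and 15 lower in EM, beside 37.4% and 37.4%. Col3a1 and Col1a2, which encode fibrillar collagens, had no count in uncloned organoids, against means of 242 and 118 CPM in the gland. Such genes passed the filter through the gland alone, so the counts against the gland describe the filter as well. The 2 genes that were higher were Fbln1 and Ly6c1 in both media, named after their values were seen. In uncloned DM over EM 4 of the 17 rose and 1 fell, which is near the 17.2% and 13.2% of all genes, led by the matrix proteins Sparc (4.57 ± 0.23, adjusted p = 1.23e-06) and Postn (7.92 ± 0.52, adjusted p = 4.76e-06), while the 7 fibroblast markers gave 1 call, that of Thy1.

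Endothelial markers were also low throughout the organoids, with Vwf as the exception in degree. Vwf, the clotting factor carrier stored by endothelial cells (chromosome 6, 125546774 to 125686679), had 0.256, 0.423 and 0.357 CPM in uncloned DM and 1.62, 0.841 and 0.828 CPM in uncloned EM, against 21.3, 28.1 and 33.6 CPM in the gland. Both media lay below the gland without overlap (DM -6.27 ± 0.33, adjusted p = 1.43e-08, and EM -4.66 ± 0.28, adjusted p = 5.26e-08). All 3 lines had less in DM than in EM (-1.61 ± 0.38, adjusted p = 0.00839). KO clones had 1.08 and 3.03 CPM in DM and 2.68 and 5.22 CPM in EM, and WT clones had 1.60 and 1.25 CPM in DM and 1.12 and 0.985 CPM in EM. Both KO clones lay above both WT clones in EM, a difference that did not pass the test (1.90 ± 0.57, adjusted p = 0.0849) but did with DESeq2 (adjusted p = 0.0400).

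The ratio of Vwf to other endothelial markers differed between markers. Emcn, the surface sialomucin endomucin of capillaries and veins, had no count in any organoid library, against 145 in the gland. The angiopoietin pathway receptor Tie1 had no count in uncloned organoids, against 85 in the gland, and the growth factor receptor Kdr had none there, against 160 in the gland. Cdh5, the cadherin of endothelial junctions, had 2 counts in uncloned DM and 0 in uncloned EM, against 106 in the gland. In uncloned EM 82 counts of Vwf thus stood beside 0 counts of Cdh5, Tie1 and Emcn together, where the gland had 535 beside 336. In KO clones in EM 153 counts stood beside 7, and in WT clones in EM 46 beside 6. These sets were chosen after the values were seen. Pecam1 and Esam were nearer to the gland's proportions in uncloned DM, where 14 and 8 counts stood beside 25 of Vwf, against 210 and 118 beside 535 in the gland. In uncloned EM there were 2 and 6 beside 82.

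Pecam1, an adhesion molecule of endothelium, platelets and leukocytes, was below 1 CPM in all but 1 organoid library. It had 0.0513, 0.231 and 0.277 CPM in uncloned DM and 0, 0.0366 and 0.0414 CPM in uncloned EM, against 9.41, 14.8 and 9.77 CPM in the gland. DM lay above EM by 7.48-fold, with a 95% counting interval from 1.72 to 67.8 (adjusted p = 0.0348), and the call was lost without any of the organoid libraries other than DM of line 6 (adjusted p from 0.0680 to 0.101). KO clones had 0.770 and 1.06 CPM in DM and 0.404 and 0.261 CPM in EM, and WT clones had 0.183 and 0.399 CPM in DM and 0.357 and 0 CPM in EM, with no call among them. The angiopoietin receptor Tek and the junction protein Esam had at most 0.261 CPM in any organoid library. Of 18 further endothelial genes 10 were tested, among them Clec14a, Mmrn2 and Robo4 with counts in the gland alone, and 2 were higher and 8 lower than the gland in DM, beside 38.1% and 37.4% of all genes, and likewise in EM, beside 37.4% and 37.4%. The vessel genes Plvap and Ptprb had no count in uncloned organoids, against means of 9.96 and 9.87 CPM in the gland. Flt1, a receptor for vascular endothelial growth factor, averaged 293 CPM in DM and 254 CPM in EM, against 11.3 CPM in the gland (DM 4.70 ± 0.19, adjusted p = 2.03e-09, and EM 4.50 ± 0.19, adjusted p = 2.97e-09). Flt1 was also lower in KO than in WT clones, at -5.54 ± 0.49 in DM (adjusted p = 0.00872) and -6.37 ± 0.56 in EM (adjusted p = 0.00464).

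Among the endothelial and pericyte genes of the 47 markers, only the pericyte marker Rgs5 exceeded its gland level in uncloned organoids. This held in DM alone, as Rgs5 in EM lay below the gland. Vascular genes outside the 47, such as Flt1, also lay above the gland. Rgs5 encodes a GTPase activator that dampens G protein signalling and lies at chromosome 1, 169655501 to 169695813. Because its level moved most between the media, the 250 bases before its start are shown on the plus strand (chr1:169655251-169655500, RefSeq, GRCm38.p6). Capitals mark matches to short motifs searched on both strands. The first is GAGGAA, a core bound by PU.1-type factors. The second is CCAAT, the site of NF-Y. Also searched were GGGCGG, the site of SP factors, and the TATA box, spelled TATAAA.
Rgs5: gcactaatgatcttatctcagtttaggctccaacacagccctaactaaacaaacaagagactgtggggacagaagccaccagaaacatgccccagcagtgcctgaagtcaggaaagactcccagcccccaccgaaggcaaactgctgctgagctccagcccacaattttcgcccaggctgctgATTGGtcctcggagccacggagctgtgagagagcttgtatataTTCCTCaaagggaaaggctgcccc
This window held 1 CCAAT and 1 GAGGAA, both on the reverse strand. CCAAT occurs in 33.8% and GAGGAA in 23.3% of 32851 RefSeq promoter windows of this length, and 29 of the 47 markers had such a window.

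Rgs5 had 35.6, 40.4 and 21.1 CPM in uncloned DM and 0.125, 0.183 and 0.497 CPM in uncloned EM, against 13.8, 16 and 10.8 CPM in the gland. The 3 groups did not overlap, and the order was DM, gland, EM (DM over EM 6.90 ± 0.39, adjusted p = 2.40e-06, and DM over gland 1.27 ± 0.27, adjusted p = 0.00129). KO clones had 83.9 and 9.56 CPM in DM and 2.17 and 0.313 CPM in EM. WT clones had 9.29 and 26.1 CPM in DM and 0.134 and 0.563 CPM in EM. Each of the 7 lines and clones was higher in DM than in EM. Clones of a genotype differed widely, with KO clone 1 above KO clone 2 in both media. The clone fits gave 5.65 ± 1.45 in WT (adjusted p = 0.0416) and 5.22 ± 1.30 in KO clones (adjusted p = 0.0554). With the clone as a block the KO value was 5.19 (adjusted p = 0.000127). The WT call was lost on leaving out either KO library in EM or any WT library (adjusted p from 0.0541 to 0.194).

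The 2 other pericyte markers did not follow Rgs5 to such levels. Kcnj8, a subunit of the potassium channel of pericytes, had 2 counts in all clone libraries together and none in uncloned organoids, against 30 in the gland. Abcc9, its partner subunit, had 0.513, 0.5 and 0.158 CPM in uncloned DM and 0.0830, 0.110 and 0 CPM in uncloned EM, against 2.49, 2.37 and 2.06 CPM in the gland. DM lay above EM (2.43 ± 0.69, adjusted p = 0.0211), but the call was lost on omitting line 6 in either medium, line 8 in EM or line 7 in DM (adjusted p from 0.0552 to 0.0803). Abcc9 was lower in DM than in the gland (-2.55 ± 0.49, adjusted p = 0.000611), a call that total-count scaling did not keep (-0.60, adjusted p = 0.257). KO clones had 0.359 and 0.425 CPM in DM and 0.404 and 0.313 CPM in EM, and WT clones had 1.46 and 0.569 CPM in DM and 0.401 and 0.234 CPM in EM. Its exons overlap those of a gene on the opposite strand by 158 bases.

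Of 13 further pericyte and smooth muscle genes 9 were tested in uncloned organoids, and in DM over EM 4 rose, 0 fell and 5 had no call by edgeR, beside 17.2% of all genes higher and 13.2% lower. In clones 6 were tested, of which 2 rose in KO clones (Acta2 and Mcam), beside 4.94% of all genes, and 1 rose in WT clones (Mcam), beside 9.61%, and none fell. Smooth muscle actin Acta2 averaged 118 CPM in DM and 5.74 CPM in EM (4.36 ± 0.30, adjusted p = 6.39e-06), and the adhesion molecule Mcam averaged 101 CPM in DM and 33.7 CPM in EM (1.59 ± 0.13, adjusted p = 1.30e-05). The actin-binding protein Tagln rose as well (4.27 ± 0.39, adjusted p = 2.62e-05). Cnn1, another one, had 25 counts in DM and 2 in EM, a ratio of 13.4 with a 95% counting interval from 3.33 to 116 (adjusted p = 0.0269). These 4 genes are also known from myoepithelial cells, the contractile epithelial cells of glands. The pericyte proteoglycan Cspg4 had no count in uncloned DM and 2 in uncloned EM, against 41 in the gland. The part of either cell type in the rise of Rgs5 was not tested.

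**Figure D2:**
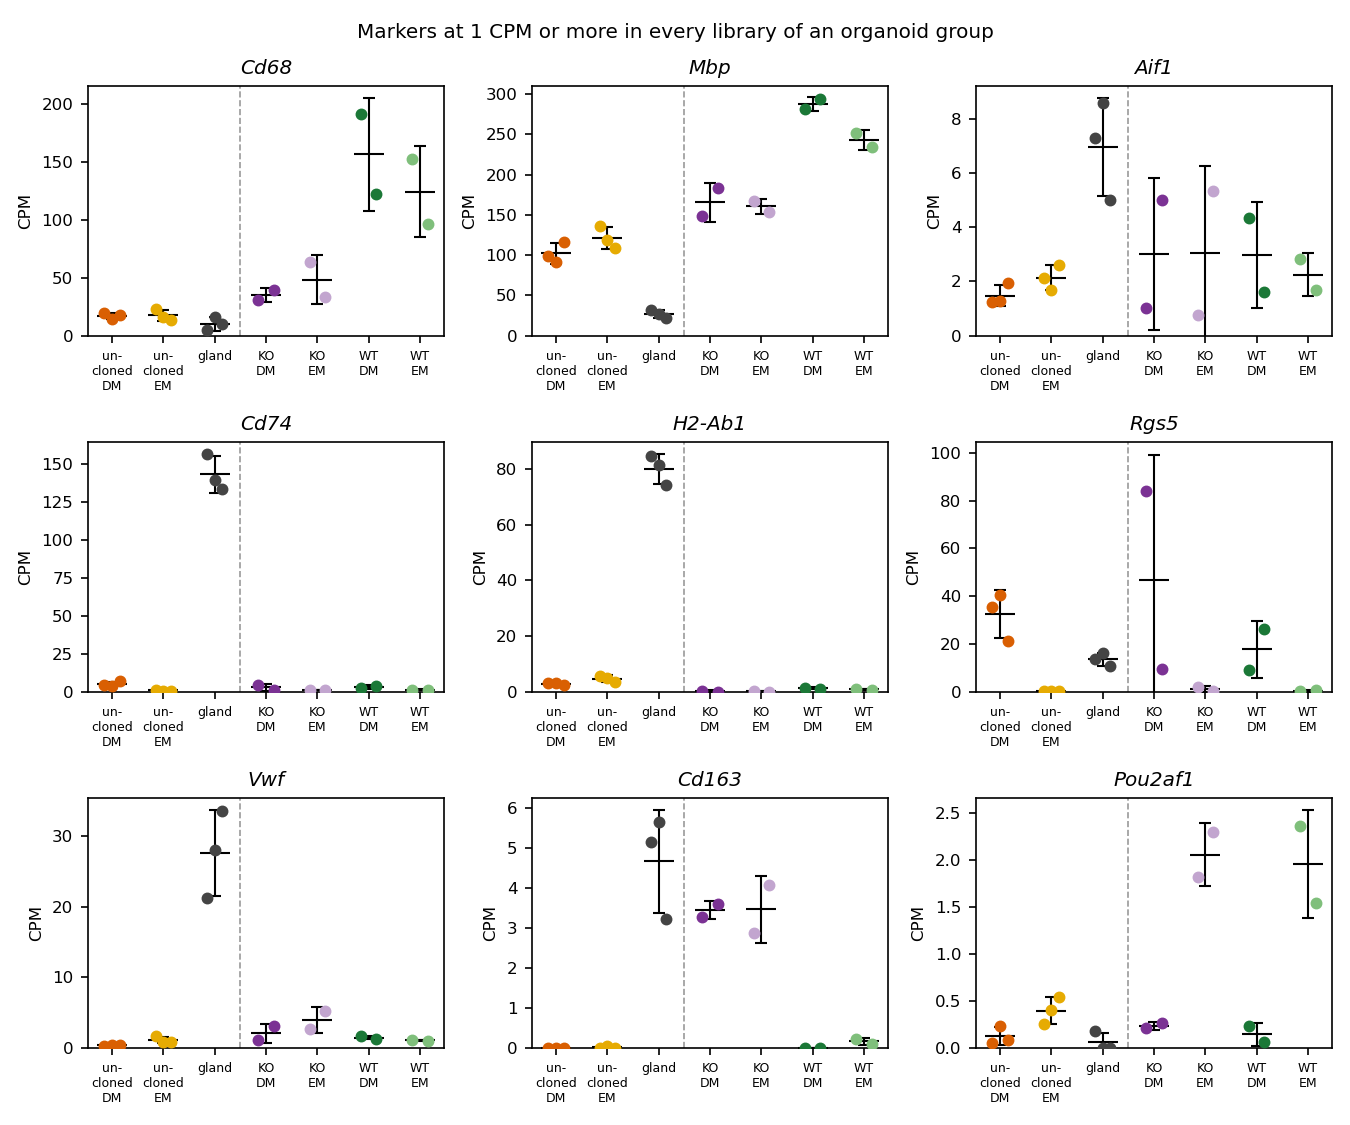
CPM (y axis, from 0, a separate scale for each gene) of the 9 markers that reached 1 CPM in every library of at least 1 organoid group, with 1 point per library and bars for mean ± SD. Groups left of the dashed line are lines 6, 7 and 8, and those right of it are clones 1 and 2, scaled apart. Mbp lies above the gland in both uncloned media, Rgs5 is high in DM groups and low in EM groups, and Cd163 is high in KO clones and near 0 in WT clones.

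Macrophage markers differed widely in what remained in organoids. C1qa, C1qb and C1qc, which encode the chains of complement C1q and are made by tissue macrophages, had no count in any of the 14 organoid libraries, against 620, 780 and 648 counts in the gland. The same held for Adgre1, the F4/80 antigen, with 269 counts in the gland, and for Ptprc, the CD45 antigen of all leukocytes, with 193. The signalling adaptor Tyrobp had 1 count in all organoid libraries together, against 416 in the gland, and the antibody receptor Fcgr1 had 3, against 68 in the gland. The mannose receptor Mrc1 and the adaptor Fcer1g had at most 0.209 CPM in any organoid library, against 13.1 to 14.9 CPM and 12 to 15.3 CPM in the gland. The myeloid master regulator Spi1, also called PU.1, had no count in uncloned organoids and 2 in the clones, against 72 in the gland. In contrast, 5 markers of this compartment reached 1 CPM in every library of an organoid group: Cd68, Aif1, Cd74, H2-Ab1 and Cd163.

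The sequences upstream of Cd68 and of C1qb are shown because the first gene was abundant in all organoids and the second absent from them. Each is 250 bases on the minus strand, from RefSeq (GRCm38.p6), at chr11:69666171-69666420 and chr4:136886201-136886450, with the same motifs in capitals.
Cd68: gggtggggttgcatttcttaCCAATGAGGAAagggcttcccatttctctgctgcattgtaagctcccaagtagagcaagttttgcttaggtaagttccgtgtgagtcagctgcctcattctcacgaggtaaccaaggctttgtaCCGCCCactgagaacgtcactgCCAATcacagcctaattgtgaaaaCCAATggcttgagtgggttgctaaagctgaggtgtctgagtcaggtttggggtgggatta
C1qb: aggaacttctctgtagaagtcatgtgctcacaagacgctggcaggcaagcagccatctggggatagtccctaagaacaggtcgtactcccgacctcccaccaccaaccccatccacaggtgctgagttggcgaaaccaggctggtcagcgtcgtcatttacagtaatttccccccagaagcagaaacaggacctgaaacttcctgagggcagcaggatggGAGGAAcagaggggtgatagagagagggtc
Both windows held 1 GAGGAA, which in Cd68 directly follows a CCAAT. The Cd68 window held 3 CCAAT and 1 GGGCGG, and the C1qb window held neither. The window of C1qc, which also had no count in organoids, held 1 GGGCGG and 1 GAGGAA, without the NF-Y motif. By the gene positions used here C1qc starts at 136893065 on the minus strand, inside its window at chr4:136892915-136893164. Part of that window thus lies within the gene. GGGCGG occurs in 32.7% of the 32851 windows. A match is a run of letters, and binding was not measured.

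Cd68, a lysosomal membrane glycoprotein used as a macrophage stain (chromosome 11, 69664213 to 69666153), had 19.5, 14.7 and 17.7 CPM in uncloned DM and 22.8, 16.2 and 13.9 CPM in uncloned EM, against 4.79, 16.6 and 9.77 CPM in the gland. The gland of line 7 lay within the organoid range. EM over gland was 0.77 ± 0.33 (adjusted p = 0.0499), and DM over gland was 0.74 ± 0.33 without a call (adjusted p = 0.0575). Blocking on the line gave 0.76 for EM (adjusted p = 0.0698). The call was also lost on omitting any of 5 libraries, namely line 6 in either medium, line 7 in EM, gland 6 and gland 8 (adjusted p from 0.0560 to 0.171). DM over gland was called by DESeq2 (0.74, adjusted p = 0.0397) and with total-count scaling (2.71, adjusted p = 7.42e-06). Within libraries, where no scaling enters, 1211 counts of Cd68 in DM and 1329 in EM stood beside 0 counts of the 3 C1q genes, against 194 beside 2048 in the gland. The ratio was at least 404 in DM and at least 443 in EM, over 3 counts in the group, and 0.0947 in the gland, where it ran from 0.0502 to 0.117 between libraries. This pairing was chosen after the values were seen.

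Clones also held Cd68 at high levels, and the genotypes differed. KO clones had 31.0 and 39.7 CPM in DM and 63.3 and 33.5 CPM in EM, and WT clones had 191 and 122 CPM in DM and 152 and 96.6 CPM in EM. All KO libraries lay below all WT libraries. The difference passed the test in DM (-2.15 ± 0.38, adjusted p = 0.0302) but not in EM (-1.36 ± 0.37, adjusted p = 0.0649). DESeq2 gave adjusted p = 0.00143 in EM. The DM call was lost without either KO library or without WT clone 1 in DM (adjusted p from 0.0862 to 0.176). The difference between these effects was not past the test (interaction -0.79 ± 0.52, adjusted p = 0.801).

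Cd163, the scavenger receptor that takes up haemoglobin and a marker of resident macrophages, stood apart in the KO clones. It had 3.28 and 3.61 CPM in KO clones in DM and 2.88 and 4.07 CPM in KO clones in EM, against 0 and 0 CPM in WT clones in DM and 0.223 and 0.0938 CPM in WT clones in EM. Both KO clones lay above both WT clones in each medium, by at least 45.3-fold in DM over 3 counts in the WT group (adjusted p = 0.0132) and by 4.39 ± 0.53 in EM (adjusted p = 0.00966). The call was lost without KO clone 1 in DM (adjusted p = 0.0930) and without KO clone 2 in EM (adjusted p = 0.0614). Uncloned organoids had 1 count in all 6 libraries, and the gland had 5.15, 5.65 and 3.21 CPM. The other macrophage genes without organoid expression did not accompany it, as KO clones had 0 counts of the C1q genes, Adgre1 and Ptprc in both media. WT clones had fewer counts in DM than in EM, 0 against 7 (adjusted p = 0.0400), at least 2.10-fold lower over 3 counts. That call was lost with the clone as a block (adjusted p = 0.0608), with DESeq2 (adjusted p = 0.0623) and without any of the 8 clone libraries (adjusted p from 0.0574 to 0.202).

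Aif1, the calcium-binding protein IBA1, was low but present in all 17 libraries. It had 1.23, 1.27 and 1.94 CPM in uncloned DM and 2.12, 1.68 and 2.61 CPM in uncloned EM, against 7.28, 8.57 and 5.01 CPM in the gland. Both organoid groups lay below the gland without overlap (DM -2.21 ± 0.30, adjusted p = 3.93e-05, and EM -1.69 ± 0.29, adjusted p = 0.000255). With total-count scaling the EM value turned to 0.37 (adjusted p = 0.231) and the DM value was -0.23 (adjusted p = 0.456), so the direction against the gland rests on the scaling. KO clones 1 and 2 had 1.03 and 4.99 CPM in DM and 0.758 and 5.32 CPM in EM, and WT clones 1 and 2 had 4.35 and 1.59 CPM in DM and 2.81 and 1.69 CPM in EM. KO clone 2 was above KO clone 1 in both media and WT clone 1 above WT clone 2, and no genotype or medium difference passed the test.

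The antigen presentation genes were unequally reduced in organoids. Class II molecules pair an alpha chain (H2-Aa) with a beta chain (H2-Ab1) and are loaded with the help of the invariant chain (Cd74). H2-Aa had 0.871, 0.423 and 0.515 CPM in uncloned DM and no count in uncloned EM, against 150, 163 and 121 CPM in the gland. DM lay above EM by at least 14.6-fold over 3 counts (adjusted p = 0.000688) and below the gland (-7.94 ± 0.22, adjusted p = 1.69e-09). In clones it had 3 and 3 counts in KO libraries in DM, 0 and 2 in WT libraries in DM and none in EM. Cd74 had 4.61, 3.61 and 6.85 CPM in uncloned DM and 1.33, 0.548 and 0.704 CPM in uncloned EM, against 157, 139 and 133 CPM in the gland. It was higher in DM than in EM in every line (2.56 ± 0.31, adjusted p = 0.000152). KO clones had 4.57 and 1.43 CPM of Cd74 in DM and 1.16 and 0.939 CPM in EM, and WT clones had 2.33 and 3.87 CPM in DM and 1.2 and 1.45 CPM in EM. All 4 clones were higher in DM, without a call in KO (1.51 ± 0.59, adjusted p = 0.171) or WT clones (1.22 ± 0.58, adjusted p = 0.204).

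H2-Ab1 moved the other way in uncloned organoids. It had 2.97, 3 and 2.5 CPM in DM and 5.77, 4.97 and 3.35 CPM in EM, against 84.7, 81.3 and 74.2 CPM in the gland. It fell in DM relative to EM (-0.74 ± 0.19, adjusted p = 0.0118) in all 3 lines. KO clones had 0.411 and 0 CPM in DM and 0.202 and 0 CPM in EM, and WT clones had 1.46 and 1.08 CPM in DM and 0.981 and 0.657 CPM in EM. All KO libraries were below all WT libraries, without a call in DM (-2.59 ± 1.2, adjusted p = 0.239) or EM (-2.93 ± 1.32, adjusted p = 0.207). Within uncloned EM 356 counts of H2-Ab1 stood beside 0 of H2-Aa, against 1500 beside 2682 in the gland. In uncloned DM 357 counts of Cd74 stood beside 41 of H2-Aa, a ratio of 8.71 that ran from 5.29 to 13.3 between lines. In the gland both genes had 2682 counts, and the ratio ran from 0.856 to 1.10. The pairings with H2-Aa were chosen after the values were seen. Of 14 further genes of class II regulation and loading 11 were tested, and 2 were higher and 7 lower than the gland in DM, beside 38.1% and 37.4% of all genes, and likewise in EM, beside 37.4% and 37.4%. In uncloned DM over EM 2 of the 11 rose and 1 fell, beside 17.2% and 13.2%. The second beta chain H2-Eb1 fell (-1.28 ± 0.31, adjusted p = 0.00915), and the processing protease Ctss (2.09 ± 0.51, adjusted p = 0.0104) and the regulator Rfx5 (0.40 ± 0.10, adjusted p = 0.0135) rose.

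Csf1r, the growth factor receptor of macrophages, had 0.564, 0.308 and 0.317 CPM in uncloned DM and 0.166, 0.0731 and 0.0414 CPM in uncloned EM, against 25.6, 37.4 and 27.5 CPM in the gland. DM lay above EM (1.98 ± 0.52, adjusted p = 0.0155), and the call was lost on omitting line 7 or line 8 in EM, or line 6 in DM (adjusted p from 0.0566 to 0.0600). KO clones had 0.308 and 0.266 CPM in DM and 0.101 and 0 CPM in EM, and WT clones had 1.10 and 0.228 CPM in DM and 0.223 and 0.0938 CPM in EM. Each line and clone thus had more in DM, at 24 counts or fewer in any organoid library. Exons of Csf1r overlap those of Hmgxb3 on the opposite strand by 873 bases, so these few counts are uncertain.

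Of 19 further myeloid genes 15 were tested, among them Ms4a7 and Spi1 with counts in the gland alone, and 3 were higher and 12 lower than the gland in DM, beside 38.1% and 37.4% of all genes. In EM 2 were higher and 12 lower, beside 37.4% and 37.4%. The lipopolysaccharide co-receptor Cd14 averaged 312 CPM in DM and 222 CPM in EM, against 9.14 CPM in the gland (DM 5.08 ± 0.19, adjusted p = 1.21e-09, and EM 4.59 ± 0.19, adjusted p = 2.69e-09). The oxidase subunit Cybb averaged 176 CPM in DM and 255 CPM in EM, against 11.5 CPM in the gland. Lyz2, the lysozyme of macrophages, averaged 2.13 CPM in DM and 0.803 CPM in EM, against 161 CPM in the gland. The third gene above the gland in DM was the integrin Itgam, named after its values were seen.

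**Figure D3:**
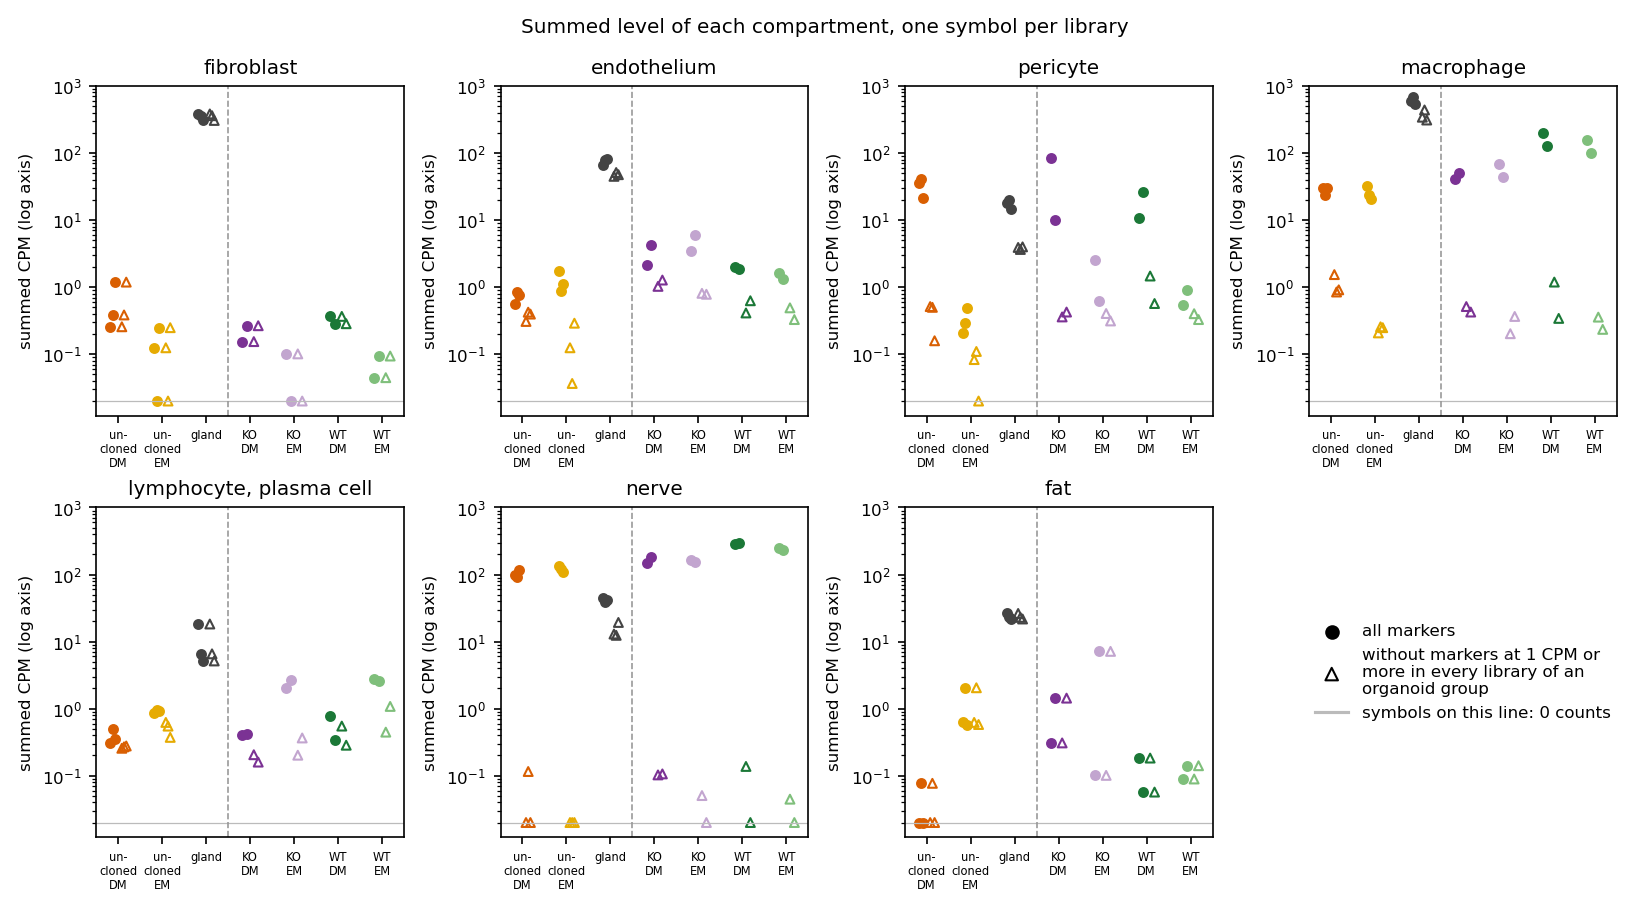
Summed CPM (log axis) of each compartment's markers in each library, by group, with circles for all markers and triangles without the 9 markers that reached 1 CPM in an organoid group. The 9 were picked by these same levels, so triangles are low in organoids by that choice. Triangles of the 11 remaining macrophage markers lie at 0.208 to 1.54 CPM in uncloned organoids and at 310.9 to 439 CPM in the gland, while circles of the nerve compartment, which holds Mbp, lie above the gland in uncloned organoids.

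The summed levels are given with and without those 9 markers. The 9 were picked by these same organoid levels, so sums without them are low in organoids by that choice. For the 16 macrophage markers the sum was 23.4 to 29.9 CPM in uncloned DM and 20.8 to 32.3 CPM in uncloned EM, against 536 to 690.5 CPM in the gland. Without Cd68, Cd163, H2-Ab1, Cd74 and Aif1 it was 0.846 to 1.54 CPM in DM and 0.208 to 0.256 CPM in EM, against 310.9 to 439 CPM in the gland. The 7 fibroblast markers summed to 0.256 to 1.19 CPM in DM and 0 to 0.248 CPM in EM, against 306 to 383 CPM in the gland. The 8 endothelial markers summed to 0.564 to 0.846 CPM in DM and 0.877 to 1.74 CPM in EM, against 66.2 to 81.1 CPM in the gland. With all their markers counted, these compartments did not overlap between uncloned organoids and gland. The 3 pericyte markers summed to 21.3 to 40.9 CPM in DM and 0.208 to 0.497 CPM in EM, against 14.8 to 19.7 CPM in the gland, so DM lay above and EM below it. Without Rgs5 the pericyte sum was 0.158 to 0.513 CPM in DM and 0 to 0.110 CPM in EM, against 3.65 to 3.99 CPM in the gland.

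Of the 7 lymphocyte and plasma cell markers only Jchain reached 1 CPM in every gland library. Jchain, which joins antibody units for secretion, had 0, 0.0384 and 0.119 CPM in uncloned DM and 0.249, 0.0366 and 0.0414 CPM in uncloned EM, against 16.3, 5.47 and 3.99 CPM in the gland. All uncloned libraries lay below all gland libraries (DM -7.08 ± 0.83, adjusted p = 1.23e-05, and EM -6.23 ± 0.76, adjusted p = 1.68e-05), and gland 6 was the highest. KO clones had 0.103 and 0.106 CPM in DM and 0.202 and 0.104 CPM in EM, and WT clones had 0.0458 and 0.171 CPM in DM and 0.0892 and 0.234 CPM in EM. The T cell receptor subunit Cd3e had 17 counts over all organoid libraries, 14 of them in WT clone 2 in EM, against 5 in the gland, and its exons overlap an opposite-strand gene by 135 bases. Cd3d had none in organoids, against 3 in the gland. The B cell receptor subunit Cd79b had 8 counts in uncloned DM and 12 in uncloned EM, against 7 in the gland, and Cd79a had 1 in each of these groups. Mzb1, a chaperone of plasma cells, had at most 0.366 CPM in any organoid library and at most 0.888 CPM in the gland, and it shares 695 bases of exon with a neighbour on its own strand. Of 18 further lymphocyte and plasma cell genes 7 were tested. In DM 2 were higher and 4 lower than the gland, beside 38.1% and 37.4% of all genes. In EM 2 were higher and 5 lower, beside 37.4% and 37.4%. Gland levels of the antibody chain genes in that list are given under other observations.

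Pou2af1, a coactivator of B cells that is also described in airway epithelium, was the exception in the clones. It had 0.0513, 0.231 and 0.0792 CPM in uncloned DM and 0.249, 0.402 and 0.538 CPM in uncloned EM, against 0.178, 0 and 0 CPM in the gland. The 2 organoid media did not overlap but were not tested, since the gene was under the filter there. KO clones had 0.205 and 0.266 CPM in DM and 1.82 and 2.29 CPM in EM, and WT clones had 0.229 and 0.0569 CPM in DM and 2.36 and 1.55 CPM in EM. All 4 clones were lower in DM, and the gene fell in KO (-3.09 ± 0.59, adjusted p = 0.0270) and in WT clones (-3.66 ± 0.62, adjusted p = 0.0114). The KO call was lost without any of the 4 KO libraries (adjusted p from 0.0974 to 0.160), and the WT call without WT clone 1 in EM (adjusted p = 0.0586) and with the 2 groups fitted alone (adjusted p = 0.0557).

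Of the 3 nerve markers 1 was above its gland level in organoids. Mbp, the myelin basic protein gene, whose locus also encodes golli proteins of other cells, had 98.9, 91.8 and 117 CPM in uncloned DM and 136, 119 and 109 CPM in uncloned EM, against 32.5, 27.2 and 22.2 CPM in the gland. All uncloned libraries lay above all gland libraries (DM 1.92 ± 0.15, adjusted p = 3.51e-07, and EM 2.16 ± 0.15, adjusted p = 1.44e-07), and the media did not differ past the test (-0.25 ± 0.13, adjusted p = 0.186). Per kilobase of exon, Mbp averaged 12.1 CPM in DM and 14.3 CPM in EM, beside 13.8 and 14 CPM for Cd68. The lengths used, 8469 bases for Mbp and 1257 for Cd68, pool all annotated exons of a gene. They can exceed the length of the transcripts present, so the order of the 2 markers by length-scaled level is uncertain. In WT clones in EM the order per kilobase was Cd68, at 99.0 CPM, before Mbp, at 28.7 CPM. Counts over the whole gene do not tell the products of the locus apart.

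Mbp was lower in KO than in WT clones. KO clones had 148 and 183 CPM in DM and 167 and 154 CPM in EM, and WT clones had 281 and 294 CPM in DM and 252 and 234 CPM in EM. The genotypes did not overlap in DM (-0.80 ± 0.13, adjusted p = 0.0249) or EM (-0.60 ± 0.12, adjusted p = 0.0306). The EM call was lost without any of its 4 libraries (adjusted p from 0.0999 to 0.185). The DM call was lost without KO clone 1 in DM, either WT library in DM or either KO library in EM (adjusted p up to 0.125), and with the 2 groups fitted alone (adjusted p = 0.0824). The medium did not change Mbp past the test in KO (0.04 ± 0.12, adjusted p = 0.882) or WT clones (0.24 ± 0.12, adjusted p = 0.239).

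The other nerve markers gave no counterpart to Mbp. Pmp22, a protein of compact myelin in Schwann cells, had no count in any of the 14 organoid libraries, against 12.8, 12 and 19.2 CPM in the gland. S100b, a glial calcium-binding protein, had 3 counts in uncloned DM and 0 in uncloned EM, against 4 in the gland. Sox10, a regulator of Schwann cells and of lacrimal acinar cells, had no count in uncloned organoids, against a mean of 23.3 CPM in the gland. Within libraries 7261 counts of Mbp in uncloned DM and 9179 in uncloned EM stood beside 0 of Pmp22, against 505 beside 287 in the gland. That is a ratio of at least 2420.3 in DM and at least 3060 in EM over 3 counts, against 1.76 in the gland. Pmp22 was paired with Mbp after the values were seen, so the size of this ratio is no separate result. Of 14 further nerve genes 7 were tested, and 3 were higher and 2 lower than the gland in DM, beside 38.1% and 37.4% of all genes, and likewise in EM, beside 37.4% and 37.4%. The neurotrophin receptor Ngfr, also known from basal epithelial cells, averaged 66.9 CPM in DM and 59.0 CPM in EM, against 0.485 CPM in the gland.

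Of the 3 fat markers only Lpl passed the filter. The hormone gene Adipoq and the droplet coat gene Plin1 had 1 count each over the 3 gland libraries, and Cidec and Lep of fat cells had none. Lpl, the lipase of fat, muscle and macrophages, had 0, 0.0769 and 0 CPM in uncloned DM and 0.623, 2.05 and 0.538 CPM in uncloned EM, against 26.3, 22.8 and 21.6 CPM in the gland. It was lower in DM than in EM, by 39.3-fold with a 95% counting interval from 10.6 to 330 (adjusted p = 0.00167), and lower in EM than in the gland (-4.42 ± 0.43, adjusted p = 2.52e-06). KO clones 1 and 2 had 0.154 and 1.43 CPM in DM and 0.101 and 7.15 CPM in EM, and WT clones had 0.0458 and 0 CPM in DM and 0.0446 and 0.141 CPM in EM. KO clone 2 stood above all other clones in both media, and no clone comparison was called. KO over WT in EM was 5.21 ± 1.94 (adjusted p = 0.140), and DESeq2 called it (adjusted p = 0.0222). Of 10 further fat genes 5 were tested. In DM 1 was higher and 4 lower than the gland, beside 38.1% and 37.4% of all genes. In EM 1 was higher and 4 lower as well, beside 37.4% and 37.4%.

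The effects of the medium in uncloned organoids and in clones are set side by side. In uncloned organoids the called rises were those of Thy1, Pecam1, Rgs5, Abcc9, Csf1r, H2-Aa and Cd74, and the called falls those of Vwf, H2-Ab1 and Lpl. With DM and EM fitted without the gland the rises were 3, those of Rgs5, H2-Aa and Cd74, and Thy1, Pecam1, Abcc9 and Csf1r were under the filter and not tested there. Of the 7 rises, Rgs5, Csf1r and Cd74 also had a higher level in DM in each of the 4 clones, and Rgs5 in WT clones was the single call among these. Csf1r was under the filter in clones and not tested there, and its few counts are uncertain because of the overlap with Hmgxb3. None of the 3 falls was called in clones. Pou2af1 was called lower in both genotypes. The test of whether the genotypes differed in their response to the medium called 0% of 14282 genes by edgeR, and 1126 of them had an unadjusted p under 0.05. Among the markers DESeq2 called 0 as well, and 1 had an unadjusted p under 0.05, Cd163, which had no count in WT clones in DM and so gives no exact difference.

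**Figure D4:**
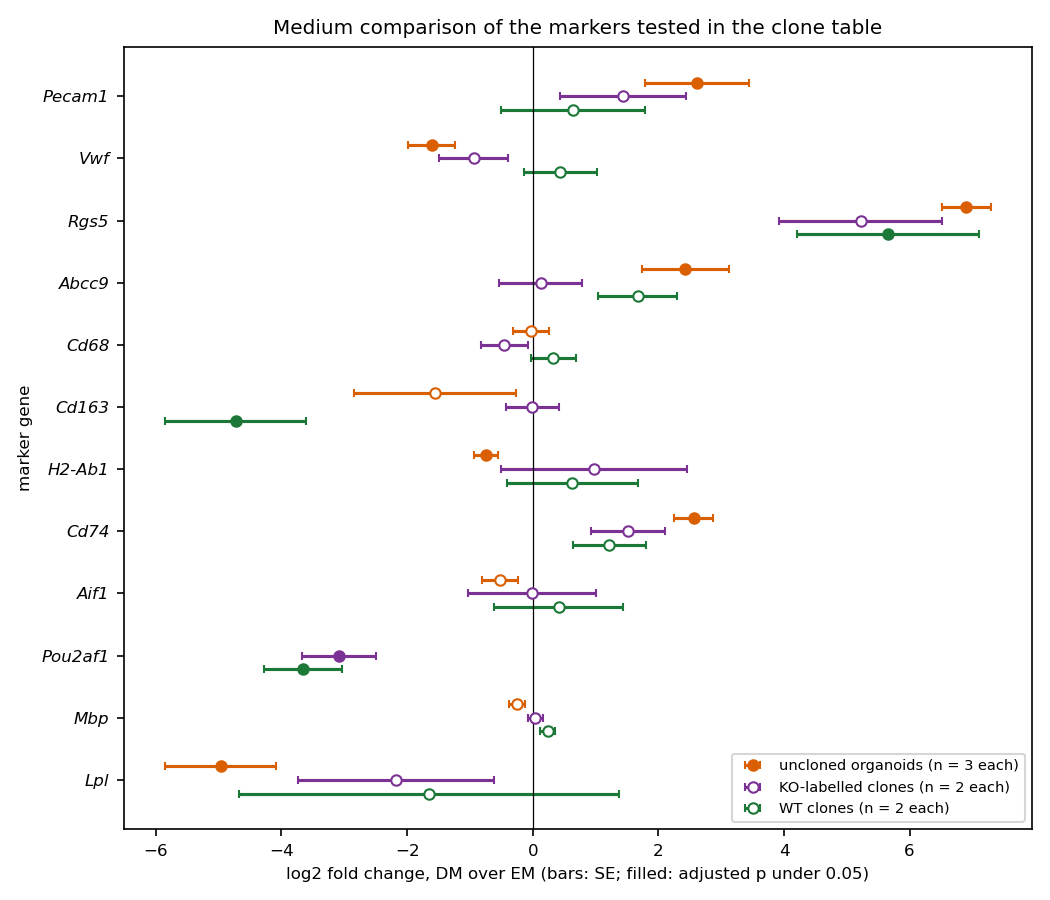
Log2 fold change of DM over EM (x axis, bars show SE) for the 12 markers tested in the clone table (y axis), in uncloned organoids, KO clones and WT clones, with filled points for adjusted p under 0.05. Rgs5 lies far to the right in all 3 series, Pou2af1 to the left in both genotypes, and Mbp and Cd68 near 0.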

How the data were processed

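Raw counts per gene were deposited by the authors in 2 tables, 1 for gland and uncloned organoids and 1 for the clones. Reads were aligned with STAR to GRCm38 and counted with featureCounts, per the submitters' processing notes, and versions, the annotation release and the strand setting are not stated there. Per the labels' protocols the libraries came from a stranded polyA kit. Total counts ran from 12801473 to 22500534 per library, and no 2 libraries were identical. Gene IDs were named and placed with GENCODE M21.

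Each table was fitted alone in R 4.3.3 with edgeR 4.0.16 (filterByExpr, trimmed-mean scaling, quasi-likelihood test, Benjamini-Hochberg adjustment), with 13713 and 14282 genes tested. The script was tested on simulated data. A level is CPM on scaled library sizes, and 3 counts over a group are the floor. Counting intervals are exact, at 95%, and cover counting error only. Alternatives were DESeq2 1.42.0, its size factors, total-count scaling, no filter, only the groups compared, a line or clone block, 0.5 CPM in place of 1 CPM, and each library left out.

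The labels give the same line or clone number in both media. Deviations of same-numbered libraries correlated at 0.12 to 0.21 over the uncloned media, 0.51 in KO and 0.59 in WT clones, and at -0.07 to 0.12 between organoids and gland. KO and WT clones share a number only.

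The 47 members and all lists were chosen with earlier results of these data known. Every value per library is given for markers at 1 CPM in every library of an organoid group, for the highest in the gland by compartment and for those called between organoid groups. Other lists give counts, and genes named from them beyond the 4 with the smallest p were chosen after their values were seen.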

Additional observations from a re-analysis of the deposited data

Results flagged for a closer look

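The levels of Vwf in DM and EM were ordered differently in uncloned organoids and in WT clones. All 3 lines had less in DM than in EM, and both WT clones had more in DM. Both KO clones had less in DM, like the 3 lines, at 1.08 against 2.68 CPM and 3.03 against 5.22 CPM (-0.94 ± 0.55, adjusted p = 0.358). The log2 change in uncloned organoids minus that in WT clones was -2.05. H2-Ab1 was likewise split between the lines and WT clones, with less in DM in all 3 lines and more in DM in both WT clones. Its difference was -1.37. The KO clones were not like the lines for H2-Ab1. KO clone 1 had 0.411 CPM in DM against 0.202 CPM in EM, and KO clone 2 had 0 CPM in both. Neither difference was tested, as the tables were fitted apart, and neither change in WT clones passed the test (Vwf 0.44 ± 0.58, adjusted p = 0.659, and H2-Ab1 0.63 ± 1.04, adjusted p = 0.731).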

How the results depend on the processing

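Counts of called markers moved as follows. In EM over gland the 2 higher became 1 with DESeq2 size factors and 1 with the line as a block, and 1 to 2 with single libraries left out. With total-count scaling Aif1 in EM over gland turned to 0.37. In uncloned DM over EM the 7 higher became 3 with only those groups fitted, and 4 to 7 higher and 3 to 4 lower with libraries left out. Markers at the level threshold in uncloned EM numbered 4 at 1 CPM and 7 at 0.5 CPM. In KO clones in DM over EM the 0 higher became 1 with DESeq2, 2 without a filter and 1 with the clone block, and the 1 lower became 3 without a filter and 0 to 1 with libraries left out. In WT clones the 2 lower became 1 with DESeq2, 1 with the clone block, 0 with only those groups, and 0 to 1 with libraries left out, as did the 1 higher. In KO over WT in EM the 1 higher became 3 with DESeq2 and 4 without a filter, and the 1 lower became 2 with DESeq2, 3 without a filter and 2 with the replicate block, each 0 to 1 with libraries left out. That block pairs KO and WT clones by a number that is a label only, so its result carries no weight. In KO over WT in DM the 1 higher became 3 and the 2 lower became 3 without a filter, the 2 lower became 1 with only those groups, and libraries left out gave 0 to 1 and 0 to 2. The interaction gave 0 and, without a filter, 1 lower. Left-out libraries gave 2 to 3 higher in DM over gland, 7 to 9 markers at 1 CPM in both clone groups in DM, 7 in KO clones in EM and 5 to 6 in WT clones in EM. Of single called markers, 769 of 819 values kept their call and direction with a library left out. The cause of these moves was not tested. DESeq2 and total-count scaling also called Cd68 higher in DM over gland. Without a filter Pou2af1 was also higher, and Kcnj8, Cd3e and S100b lower, in EM over gland, and Cd68 higher and Kcnj8, Cd3e and Mzb1 lower in DM over gland. The unfiltered fit takes in genes with hardly a count, and in the clones its p-values were far smaller. Depth limits most organoid values of the low markers to a few counts, and 2 clones a genotype limit the KO comparisons.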

Other observations

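Plasma cell transcripts were uneven between the 3 glands. Igha, the heavy chain of the tear antibody, had 351, 13 and 17 counts in glands 6, 7 and 8, or 62.3, 2.37 and 2.19 CPM. The light chain Igkc had 38.7, 10.4 and 7.46 CPM, and gland 6 was again the highest, as it was for Jchain. The heavy chain Ighm did not follow, at 9.77, 17.5 and 15.3 CPM.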
